A study of Mus musculus with 2 samples.

Results

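The DNA methylation of 50 developmental transcription factor genes outside the Hox clusters was measured in mouse osteoblasts with and without the TET enzymes. The genes were taken by name from a list of developmental families and are 50 of the 21755 protein-coding genes of the autosomes and chromosome X in GENCODE M21 (mouse genome build GRCm38). They fall into 8 family groups, with 6 Pax, 6 Irx, 8 Lhx, 5 Gata, 7 Nkx and 8 Fox genes, the 3 genes Six2, Six3 and Six6, and a last group of 7 made of En1, En2, Otx1, Otx2, Barx1, Barx2 and Isl1. Whole-genome bisulfite sequencing (WGBS) was done on genomic DNA of primary osteoblasts, bone-forming cells taken from 3-day-old C57BL/6 mice and grown in culture for 3 days. The WT group was labelled wild type. The TCKO group carried floxed Tet1, Tet2 and Tet3 alleles and Prx1-Cre, which is active in the limb bud mesenchyme and part of the skull mesenchyme and their descendants, so cells of other origin in a culture keep the genes. Each genotype had 1 library, how many animals went into it was not given in the sources used here, and every test below therefore compares 2 libraries and carries no replicate check of the genotype.

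The TET enzymes oxidise 5-methylcytosine (5mC) to 5-hydroxymethylcytosine (5hmC) and further, which opens the way to unmethylated cytosine. Genes of these families switch on cell fates in the embryo, and most are silent in any given differentiated cell. Many of them lie in broad stretches of CG-rich DNA that stay unmethylated in cells where the gene is silent, held there by Polycomb proteins, and such stretches are called DNA methylation valleys. Bisulfite sequencing reads 5mC and 5hmC alike as methylated.

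Of 261062118 WT calls on CG cytosines (5.97 per CG cytosine of the reference), 70.2% were methylated, and of 223581206 TCKO calls (5.11 per cytosine), 76.3%. The deletion was looked for in the number of calls over the Tet exons. In each gene the exon with the lowest ratio of TCKO to WT calls was taken, among those read deeply enough in WT. It was exon 11 in all 3 genes. Going from WT to TCKO, its calls numbered 62 and 1 in Tet1, 155 and 46 in Tet2 and 85 and 26 in Tet3. Over the other exons the ratios were 0.242 to 1.04 in Tet1, 0.491 to 0.766 in Tet2 and 0.661 to 0.944 in Tet3. Over the 3 whole genes TCKO had 0.784 to 0.819 times the calls of WT. Taking the lowest exon favours a drop by the choice alone, and the deletion was not tested. Of 7 osteoblast and mesenchyme marker genes, 5 were under 20% methylated around the transcription start site (TSS) in WT, against 0 of 6 leukocyte markers, 0 of 3 endothelial markers and 2 of 3 neuronal markers. Coverage was thin at the genes described here. Within 2 kb of their TSS there were 2.64 calls per CG cytosine in WT and 2.09 in TCKO, and a gene had 358 to 1372 calls in WT and 174 to 1198 in TCKO. Intervals are 95% Wilson intervals and, like the p-values, cover counting error only, since calls on 1 read or on copies of 1 molecule are not independent.

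Some stretches that carry the results are shown here, each a 200 bp bin or the 200 bases before a TSS, on the plus strand of GRCm38 and read 5′ to 3′, with each CG, the unit in which methylation was measured, in capitals. The Barx2 stretches show the contrast met in the results, between the CG-rich start of a gene that stayed unmethylated and a CG-poor bin just outside its unmethylated domain that gained methylation. Barx2, a homeobox gene of muscle, cartilage and epithelial development, lies on the minus strand. The 200 bases before its TSS (chr9:31913463-31913662) hold 22 CG sites, and 0% of 53 WT calls (interval to 6.76%) and 0% of 16 TCKO calls (interval to 19.4%) were methylated. The bin in its first intron at chr9:31911801-31912000 holds 3 CG sites and rose from 31.6% (38 WT calls, 19.1% to 47.5%) to 73.5% (49 TCKO calls, 59.7% to 83.8%).
Barx2, before the TSS: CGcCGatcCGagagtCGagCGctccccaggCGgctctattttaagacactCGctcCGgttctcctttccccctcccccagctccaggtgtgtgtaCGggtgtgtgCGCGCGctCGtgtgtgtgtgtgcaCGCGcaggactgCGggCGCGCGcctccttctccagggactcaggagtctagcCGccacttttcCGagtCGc
Barx2, bin that rose: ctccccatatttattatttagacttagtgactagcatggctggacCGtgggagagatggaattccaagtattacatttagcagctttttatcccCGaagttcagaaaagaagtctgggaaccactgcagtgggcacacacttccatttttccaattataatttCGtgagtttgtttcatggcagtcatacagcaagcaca
The intergenic bin at chr13:72626001-72626200, 2720 bp upstream of the TSS of Irx2, an Iroquois homeobox gene, is shown as the second bin that rose next to a domain. Its level was 32.6% (20.9% to 47.0%) of 46 calls in WT and 72.7% (58.2% to 83.7%) of 44 calls in TCKO.
Irx2, bin that rose: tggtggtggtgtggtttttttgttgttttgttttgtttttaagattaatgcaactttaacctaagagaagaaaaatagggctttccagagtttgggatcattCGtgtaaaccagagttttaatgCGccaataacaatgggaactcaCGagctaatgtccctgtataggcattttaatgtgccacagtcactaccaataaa
The bin at chr3:154340401-154340600, upstream of the LIM homeobox gene Lhx8, and that at chr2:24453401-24453600, in an intron of the thyroid and kidney regulator Pax8, were picked after their values were seen, as the bin with the most CG cytosines and the bin with the largest gain. The Lhx8 bin holds 10 CG sites and rose from 6.45% of 155 calls to 53.9% of 102 calls. The Pax8 bin holds 2 CG sites and rose from 0% of 23 calls (interval to 14.3%) to 70.8% of 24 calls (50.8% to 85.1%).
Lhx8, bin that rose: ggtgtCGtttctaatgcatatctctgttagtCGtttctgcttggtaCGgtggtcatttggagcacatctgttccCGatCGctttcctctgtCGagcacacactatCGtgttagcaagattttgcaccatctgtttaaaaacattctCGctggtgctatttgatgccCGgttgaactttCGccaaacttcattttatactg
Pax8, bin that rose: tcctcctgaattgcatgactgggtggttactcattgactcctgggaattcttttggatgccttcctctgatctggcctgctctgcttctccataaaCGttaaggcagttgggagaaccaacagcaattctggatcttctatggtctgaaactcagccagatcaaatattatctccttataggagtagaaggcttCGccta

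Around their TSS the developmental factors were low in methylation in both libraries. Within 2 kb on each side of the TSS, the median over the 50 genes was 8.99% for WT and 9.74% for TCKO, and 43 of the 50 were under 20% in WT and 38 in TCKO. Over all protein-coding genes the medians were 45.2% and 50.4%. The median difference, TCKO minus WT, was 0.934 percentage points over the developmental factors and 4.74 points over all genes. The level was higher in TCKO at 29 of the 50 (58%) and lower at 21, where 76.5% of all genes tested were higher. In 27 of the 50 it differed by under 2 points either way. Compared within 200 bp bins, as described below, 33 of the 50 were higher, and 18412 of the 21722 genes tested. A total of 19 genes were under 5% in WT, among them Pax2 (0.669%), a kidney and inner ear regulator, and Irx5 (0.503%), an Iroquois gene of limb and heart patterning.

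Each gene was compared in 2 ways. A 2-sided Fisher exact test was run on the pooled calls of the window, and, because the libraries can cover the low and the high parts of a window unequally, the calls were also compared within each 200 bp bin with the Cochran-Mantel-Haenszel test. Both were adjusted by the method of Benjamini and Hochberg over all genes tested, with an adjusted p under 0.05 as threshold. By the pooled test 12 of the 50 were higher in TCKO, where 38.2% of all genes tested were, and 2 were lower, where 2.89% of all genes were. By the test within bins 10 were higher, against 44.9% of all genes, and 0 were lower, against 0.953%. A gene is said below to have risen or fallen where both tests passed. Within 2 kb of the TSS 7 genes rose (Irx2, Irx4, Gata2, Gata4, Gata5, Nkx3-2 and Barx2) and 0 fell by both tests, where 31% of all genes tested rose and 0.603% fell.

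**Figure D1:**
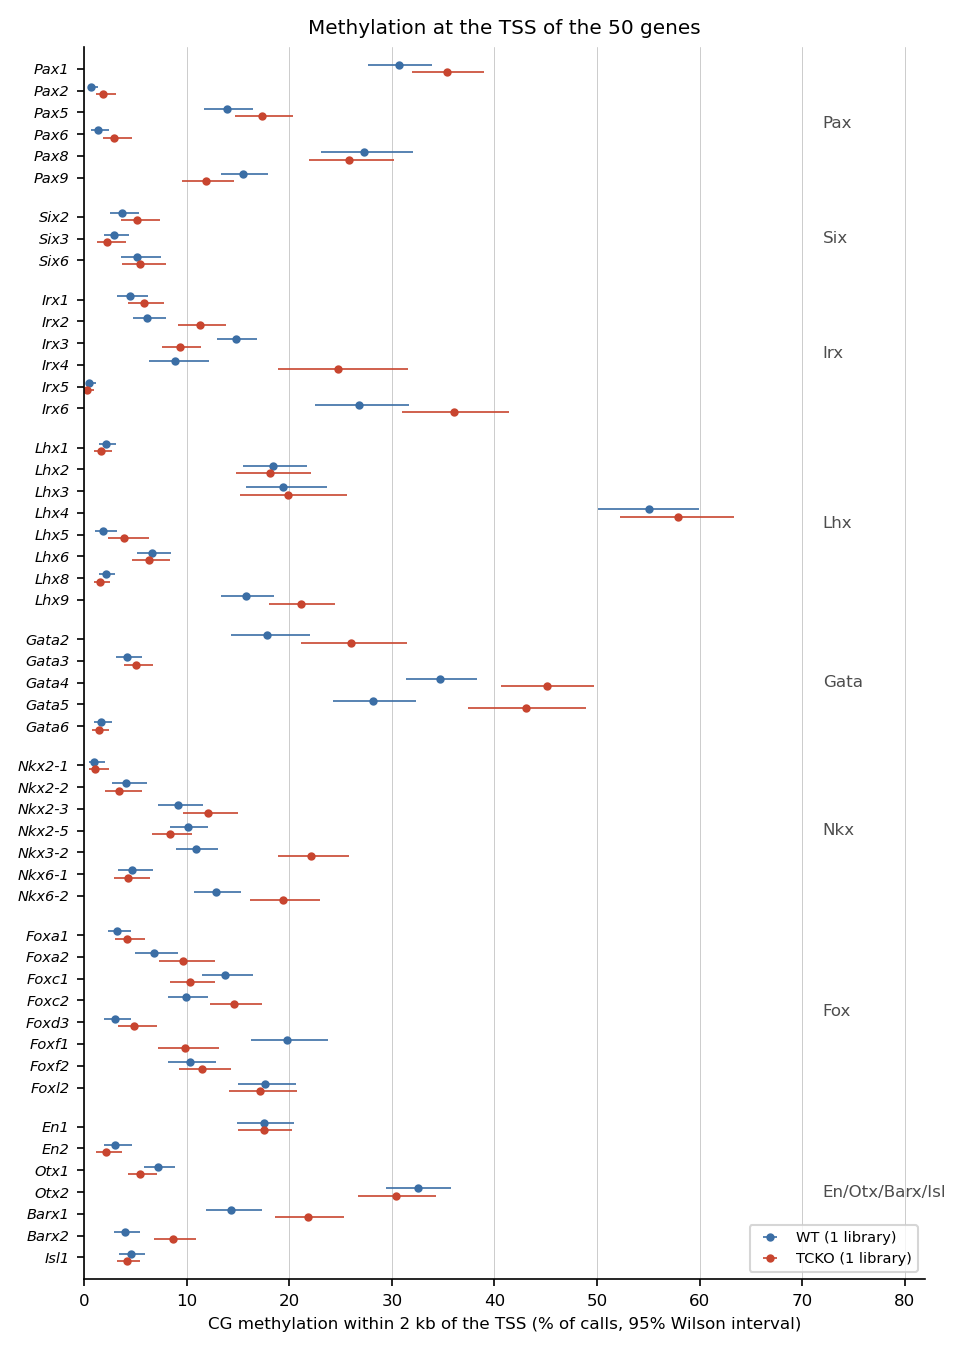
CG methylation within 2 kb of the TSS (horizontal axis, percent of calls) of each of the 50 genes, grouped by family, in the WT library (blue) and the TCKO library (red), with bars for the 95% Wilson interval of the counts. Most pairs of points lie on top of each other at the left, with 43 genes under 20% in WT. The widest gaps are the increases at Irx4, Gata4, Gata5 and Nkx3-2 and the decrease at Foxf1, a decrease that passed the pooled test alone.

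Among the Iroquois genes, Irx4 (chr13:73260479-73269608, plus strand), a gene of the heart ventricle, rose from 8.82% (6.35% to 12.1%, 374 calls) to 24.7% (18.9% to 31.6%, 174 calls), with an adjusted p of 1.66e-05 by the pooled Fisher exact test. The difference was 15.9 points pooled and 10.8 points within bins. In 1 kb steps, Irx4 went from 29.7% to 50% between 2 and 1 kb upstream and from 1.69% to 11.8% in the first 1 kb of the gene, so the higher level extended to the start of the gene itself. Irx2 (chr13:72628820-72634198, plus strand) rose from 6.17% to 11.3% (adjusted p = 0.0016 by the exact test). Its first 1 kb upstream was at 0.769% and 1.39%, its first 1 kb downstream at 0% of 187 and of 165 calls, and the step from 1 to 2 kb downstream at 9.58% and 17.2%. The step from 2 to 1 kb upstream was at 8.80% of 125 calls (4.98% to 15.1%) and 14.8% of 61 calls (7.96% to 25.7%). The first 1 kb on each side of the Irx2 start was thus low in both libraries. From 1 to 2 kb downstream TCKO was higher with intervals apart (7.19% to 12.7% in WT and 13.8% to 21.2% in TCKO). The intervals of the step from 2 to 1 kb upstream overlapped, and the steps were not tested.

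In the Gata family of zinc finger factors, Gata5 (chr2:180325133-180334699, minus strand), a gene of endoderm and heart, rose from 28.1% (24.3% to 32.4%) to 43.1% (37.4% to 48.9%), with an adjusted p of 0.000202 by the exact test. The difference was 14.9 points pooled and 9.44 points within bins, where the adjusted p was 0.0116 by the Cochran-Mantel-Haenszel test. The first 1 kb of Gata5 was at 3.73% in WT and 1.20% in TCKO, and the 1 kb upstream of its TSS at 24.6% (17.8% to 32.9%) and 51.6% (39.4% to 63.6%), while the outer steps were at 48% and 69.0% (2 to 1 kb upstream) and at 44.8% and 62.8% (1 to 2 kb downstream). The levels of Gata5 thus diverged on both sides of the first 1 kb and not in it. Gata4 (chr14:63198922-63271692, minus strand), a gene of heart and gonad, went from 34.7% to 45.1% (adjusted p = 0.00173), and Gata2 (chr6:88193891-88207032, plus strand), a gene of blood stem cells, from 17.9% to 26.0% (adjusted p = 0.0386, both by the exact test). The result for these 2 genes depends on which start is used. The gene records begin 26444 bp (Gata4) and 4443 bp (Gata2) from the start of the principal transcript, and at that start Gata4 was at 14.2% and 14.4% and Gata2 at 4.35% and 8.53%, where the test within bins gave an adjusted p of 0.263 for Gata2. Gata3, a gene of T cells, was at 4.19% and 5.09%, and Gata6, a gene of endoderm and heart, at 1.60% and 1.40%, differences that did not pass either test.

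Nkx3-2 (chr5:41761483-41764501, minus strand), which promotes cartilage formation in the axial skeleton, rose from 10.9% (8.99% to 13.1%, 893 calls) to 22.2% (18.9% to 25.8%, 555 calls). The difference was 11.3 points pooled and 6.73 points within bins. By the Fisher exact test it had the lowest adjusted p of the 50 at the TSS, 1.79e-07. By the Cochran-Mantel-Haenszel test within bins its adjusted p was 0.0027, and the lowest of the 50 was that of Gata4 (0.000187). The first 1 kb of Nkx3-2 was at 0.410% in WT and 0% of 53 calls in TCKO, while the 1 kb before its TSS was at 6.51% (4.26% to 9.85%) and 15.6% (11.4% to 21.2%). Barx2 (chr9:31846044-31913462) rose from 3.97% (2.88% to 5.45%) to 8.68% (6.86% to 10.9%), with an adjusted p of 0.000551 by the exact test. Upstream, Barx2 did not differ (1.62% and 1.55% between 2 and 1 kb, 0% and 0.699% in the last 1 kb), and from 1 to 2 kb inside the gene it was at 27.8% (18.8% to 39.0%) in WT and 66.2% (54.0% to 76.5%) in TCKO, the step that holds the bin printed above.

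A further 5 genes were higher by the pooled test alone. They were Lhx9, a limb bud and gonad gene (15.7% and 21.1%), Barx1, a gene of stomach and tooth mesenchyme (14.4% and 21.8%), Nkx6-2, a gene of neurons and glia (12.8% and 19.4%), Irx6 (26.8% and 36.1%) and Foxc2, a gene of the vertebrae and lymph vessels (9.95% and 14.7%). Within bins the differences of these genes were 1.09 to 4.87 points. Pax2 (0.669% and 1.86%), Irx1 (4.51% and 5.79%) and Pax5, the B cell regulator (13.9% and 17.3%), were higher by the test within bins alone. The largest decreases by the pooled test were those of Foxf1, a gene of lung and gut mesenchyme (19.8% and 9.82%), and Irx3, a gene of limb and heart patterning (14.8% and 9.33%). Within bins Foxf1 differed by -4.46 points and Irx3 by 0.392 points, and neither passed there. In Foxf1 the calls moved between parts of the window, with 200 and 143 calls in the step 2 to 1 kb upstream but 39 and 167 in the step next to the TSS and 131 and 45 in the first 1 kb of the gene.

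A list of 12 of the 50 genes with known roles in the skeleton or its precursors had a median difference of 0.732 points at the TSS, against 0.934 over all 50, and 2 of the 12 rose, Nkx3-2 and Gata4. The other genes of the list did not pass both tests. Pax1 and Pax9, which pattern the sclerotome that forms the vertebrae, were at 30.7% and 35.4% and at 15.5% and 11.9% in WT and TCKO. Foxc1, a regulator of skull and cartilage formation, was at 13.8% and 10.4%. Its first 1 kb was at 0.448% of 223 calls and 0% of 404 calls, and the high part of the window lay 1 to 2 kb upstream (49.2% and 53.9%). Six2, a progenitor gene of kidney and skull base, was at 3.70% and 5.18%, Lhx8, a gene of teeth, palate and forebrain neurons, at 2.11% and 1.55%, and En1, a gene of limb and skull patterning, at 17.5% in both, and Irx5 was the lowest of the list (0.503% and 0.278%). Pooled over the window, the differences of the skeletal genes thus ran in both directions at the TSS. Within bins 9 of the 12 were higher in TCKO and 0 passed as lower, with a median difference of 1.82 points. There Foxc1 differed by 1.37 points and En1 by 2.27 points.

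The developmental factors were also set beside other genes that were low in WT. Of the 43 developmental factors under 20% in WT, 9 (20.9%) were higher in TCKO by the pooled test and 8 (18.6%) by the test within bins, with a median difference of 0.489 points. Of the 2992 other genes under 20% in WT the shares were 48.2% and 53.3%, with a median difference of 4.46 points. With the other genes limited to the 299 with an unmethylated domain of 5 kb or more, the shares were 24.7% and 21.7% and the median difference 0.577 points, and the 26 developmental factors with such a domain had shares of 3.85% (1 gene, Irx2) and 11.5% and a median difference of 0.374 points. Other genes with domains of 3 kb or more (1595) had shares of 40.5% and 46.7%. The small difference at the TSS was therefore met in other genes with very long domains as well, and the differences between these groups of genes were not tested.

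The unmethylated domains of the developmental factors were long. A domain is here a run of 200 bp bins under 20% methylated that starts within 1 kb of the TSS, bridges unread bins over up to 600 bp and single higher bins, and is followed in each library by itself. The median size was 5000 bp in WT over the 50 genes and 1200 bp over all protein-coding genes. Domains of 3 kb or more were found in WT at 36 of the 50 (72%) against 7.50% of all genes, of 5 kb or more at 26 (52%) against 1.49%, and of 10 kb or more at 9 (18%) against 0.354%. The longest were those of Pax6, the eye and brain regulator (21400 bp), Isl1, a gene of motor neurons and hindlimb (18000 bp), Pax2 and Foxa1, an endoderm factor (both 16600 bp), Foxd3, a neural crest gene (14000 bp), and Foxf2, a gene of gut and palate mesenchyme (13800 bp). The shortest were those of Pax8 (200 bp), Pax1 (1000 bp), Lhx4, a pituitary gene (1200 bp), and Irx4 (1400 bp). At 7 genes (Six2, Lhx3, Nkx2-1, Nkx2-3, Foxa1, Foxd3 and Isl1) the domain covered the whole gene. By family the Fox genes had the longest median domain (9000 bp) and the Gata genes the shortest (2200 bp).

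In TCKO the median domain was 4000 bp, and the median ratio of the TCKO to the WT size was 0.911, against 0.889 over all genes. The domain was shorter in TCKO at 31 genes (62%), equal at 9 and longer at 10 (20%), where of the 16049 protein-coding genes with a WT domain 58.3% had a shorter one and 11.4% a longer one. It shrank by 1 kb or more at 16 genes and grew by as much at 5. The largest decreases in size were at Foxf1 (11800 to 2400 bp), Foxf2 (13800 to 5600 bp), Foxd3 (14000 to 6600 bp), Pax6 (21400 to 14200 bp) and Nkx2-1, a gene of thyroid, lung and forebrain (13000 to 6600 bp). The largest increases were at Six3, a forebrain gene (7200 to 12800 bp), and Pax9 (1600 to 6800 bp). The methylation level of these stretches moved less than their sizes. Pooled over the whole WT domain, Foxf1 was at 6.27% in WT and 7.31% in TCKO, Foxf2 at 6.76% and 7.17%, Foxd3 at 7.42% and 8.27%, Pax6 at 3.65% and 4.60% and Nkx2-1 at 3.10% and 4.24%. It thus moved by under 2 points where the size was 6 kb or more shorter. In Irx2 and Nkx3-2, by contrast, the WT domain went from 4.66% to 15.6% and from 5.18% to 14.5% with sizes of 5200 and 3400 bp and of 3200 and 1800 bp. No test was made of the sizes or of the levels in the domains, since the domains were set on the WT calls.

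**Figure D2:**
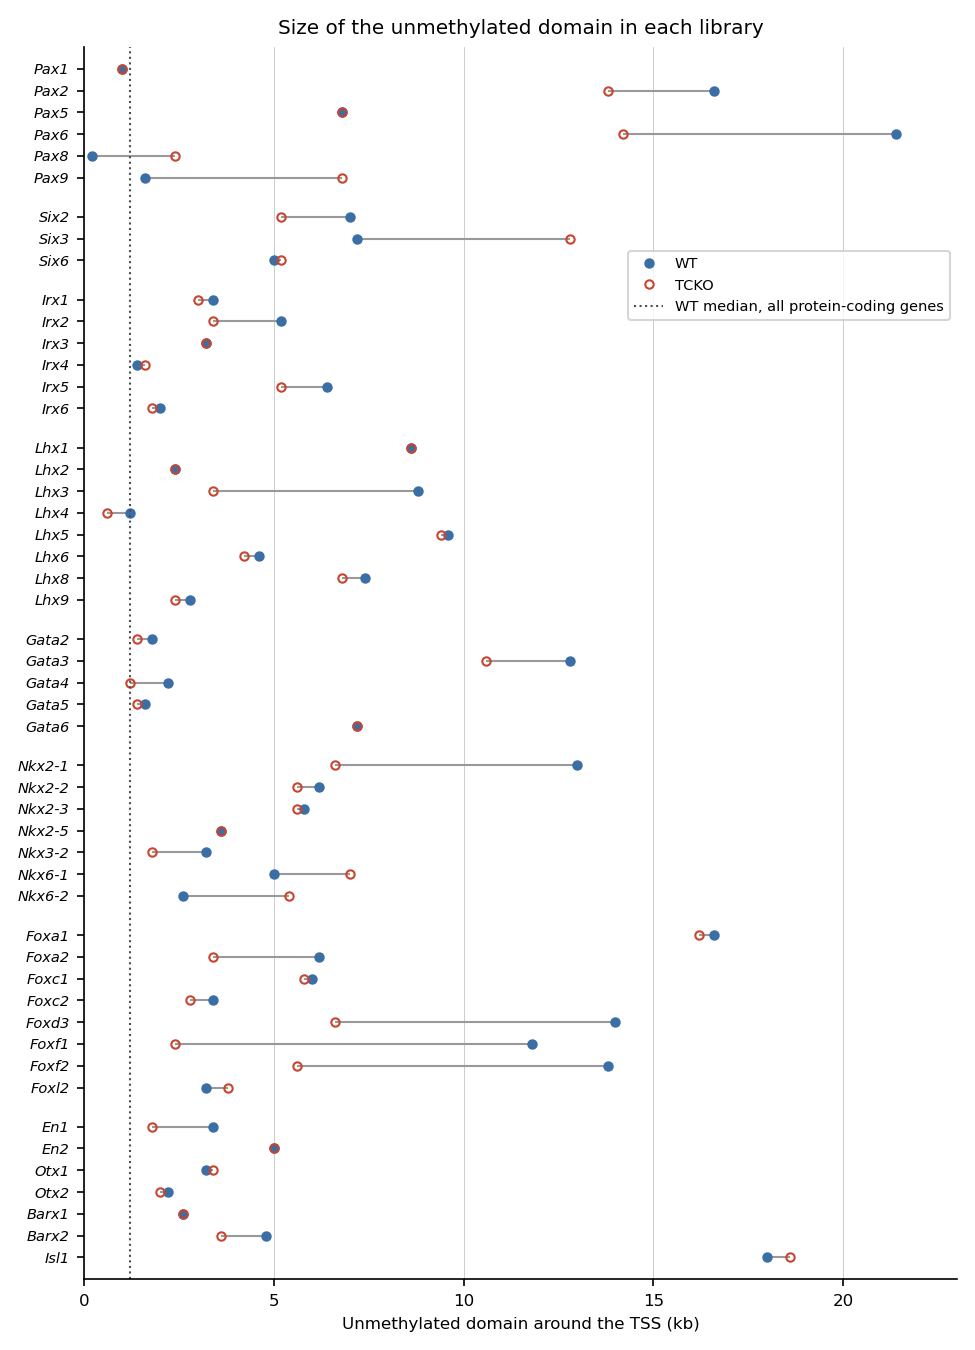
Size in kb (horizontal axis) of the unmethylated domain around the TSS of the 50 genes, grouped by family, in WT (filled blue) and TCKO (open red), joined by a grey line, with a dotted line at the WT median of all protein-coding genes (1200 bp). Most WT points lie right of the dotted line, and long grey lines to the left mark Pax6, Lhx3, Nkx2-1, Foxd3, Foxf1 and Foxf2.

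Over the whole locus, the gene and 20 kb on each side with the domain included, the median share of bins under 20% was 27.6% in WT and 25.4% in TCKO over the 50 genes, and 6.70% and 4.76% over all genes. Of the 50, 40 had fewer such bins in TCKO, a count that is not given over all genes. The domains were of intermediate CG density, with a median observed-to-expected CG ratio of 0.598 (0.638 over the domains of all genes) and a median GC content of 56.2% (56% over all genes). Plotted along the locus, mean methylation fell to 3.64% in WT and 5.09% in TCKO in the 500 bp after the TSS and was still 25.2% and 31.4% in the step centred 5250 bp downstream, where the other genes were at 69.7% and 75.8%.

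**Figure D3:**
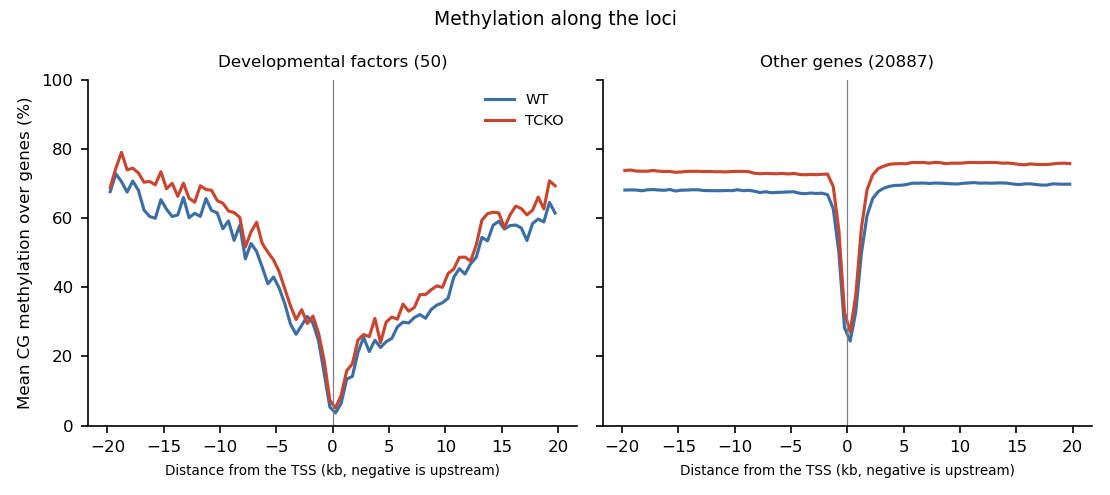
Mean CG methylation (vertical axis, percent) in 500 bp steps from 20 kb upstream to 20 kb downstream of the TSS (horizontal axis), for the 50 developmental factors (left) and the other protein-coding genes (right), in WT (blue) and TCKO (red). The left trough is broad and the right one narrow. In the step centred 250 bp downstream the mean difference was 1.45 points on the left and 2.65 on the right. At 1250 bp downstream it was 2.40 and 7.34 points, and at 5250 bp, still inside the left trough, 6.18 and 6.02 points.

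The edges of the domains were examined in the genes with a WT domain of 3 kb or more. To keep the choice of an edge apart from its measurement, edges were set on the calls of one strand and measured on those of the other, which left 30 developmental factors among 841 genes. In the outermost 1 kb inside the edges, the median level over the 30 was 5.75% in WT and 7.18% in TCKO, and over the 811 other genes 4.53% and 8.60%. The median difference was 1.26 points and 3.55 points. In the interior, the medians of the developmental factors were 3.71% and 3.60%, while the difference per gene had a median of 0.556 points (0.357 in the other genes). That difference was above 0 in 23 of the 30 and in 499 of the 811 other genes. In the first 1 kb outside the edge they were at 28.6% and 25.8%, with a median difference per gene of 1.75 points, and the other genes at 51.7% and 64.7%, with a median difference of 9.004 points. From 1 to 5 kb outside they were at 24.4% and 29.7% and the other genes at 68.7% and 79.4%. The step at the domain edge was thus lower at the developmental factors than at the other genes in both libraries. In the first 1 kb outside, 13 paralogs of the same families outside the list were at 24.2% and 28.1%. There 29 Hox genes were at 14.2% and 13.1%, and 3 Dlx and Msx genes at 31.9% and 44.5%. At the inner edge the median differences of these 3 groups were 1.02, 0.973 and 2.50 points. Differences between any of these groups of genes were not tested.

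**Figure D4:**
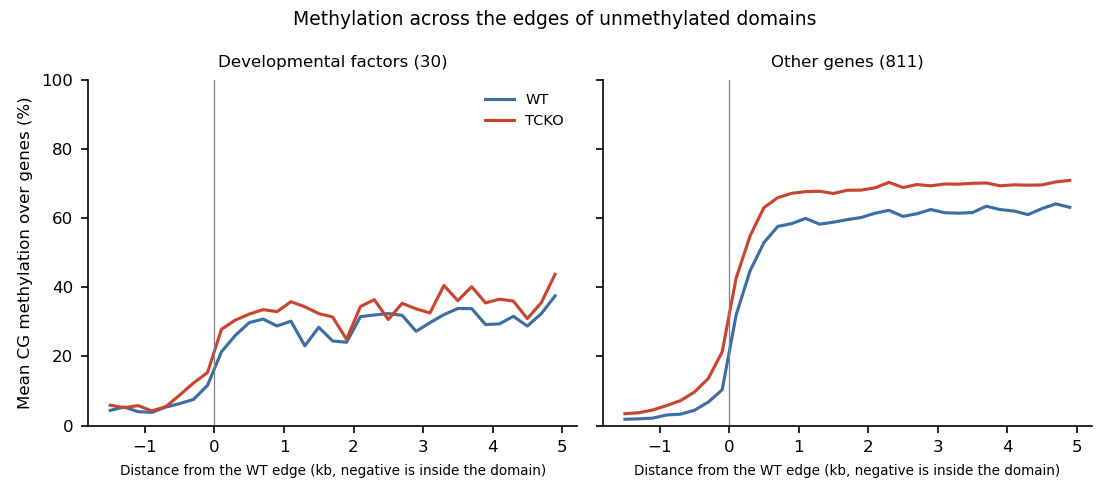
Mean CG methylation (vertical axis, percent) in 200 bp steps across the WT domain edge (horizontal axis, kb, negative inside the domain), with edges set on one strand and measured on the other, for 30 developmental factors (left) and 811 other genes (right) in WT (blue) and TCKO (red). In the step centred 900 bp outside the edge the left curves stand at 28.8% and 33.0% and the right ones at 58.4% and 67.2%.

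At the inner edge 5 of the 30 rose and 0 fell by both tests, against 38.2% and 0.713% of the 841 genes. The 5 that rose were Irx2, Gata6, Nkx3-2, Foxc2 and Barx2. Of the 841 genes the pooled test called 41.1% higher and the test within bins 43.9%, with the genes that passed both included in each share. Within bins, Pax5 and Nkx2-2, a gene of the ventral neural tube and pancreas, were also higher, and Nkx6-1, a gene of pancreatic beta cells and motor neurons, and Foxa2, an endoderm and floor plate gene, were lower, where 1.19% of genes were. By the pooled test 0 of the 30 were lower, where 1.43% of genes were. The highest inner edge gain was that of Irx2, from 3.46% (1.94% to 6.09%) to 20.3% (14.4% to 27.8%), with an adjusted p of 1.95e-07 by the exact test. It lay on the downstream side alone, where Irx2 was at 5.63% (2.99% to 10.3%) of 160 calls in WT and 42.9% (31.4% to 55.1%) of 63 calls in TCKO, while the upstream side was at 1.27% and 1.33%. Barx2 had the same form, with 14.5% (9.49% to 21.5%) and 48.1% (37.3% to 59.0%) downstream and 2.36% and 2.48% upstream. Nkx3-2 went from 7.11% to 19.3% over both sides (8.91% and 21.0% upstream, 5.92% and 15.2% downstream), and Foxc2 from 11.8% to 20.6%. Gata6 went from 4.35% to 9.25%, with its increase upstream (4.74% and 11.1%). En2, a hindbrain gene, was at 10.2% and 15.1% and Nkx2-1 at 3.94% and 8.29%, and neither passed either test. Edges that rose were thus of single genes and, in Irx2 and Barx2, of a single side.

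Gene bodies and flanks carried more of the difference than the starts. Over the gene body the median level of the 50 was 17.98% in WT and 19.3% in TCKO, with a median difference per gene of 3.97 points against 5.69 over all genes. By the pooled test 28 were higher, against 64.8% of all genes, and 1 was lower, against 2.75%. Within bins 27 were higher, against 69.7%, and 2 were lower, against 1.94%. By both tests 24 rose and 1 fell, against 61.9% and 1.53% of all genes. The largest increases were at Gata6 (44.5% to 59.7%), Gata2 (27.7% to 41.9%), Irx2 (16.1% to 29.8%) and Pax1 (47.9% to 61.5%). All 6 Irx genes rose over the gene body by both tests, as did 4 of the 5 Gata genes, 5 of the 8 Lhx genes, 3 of the 6 Pax genes, 2 of the 7 Nkx genes, 1 of the 8 Fox genes and 3 of the 7 genes of the last group, while Six2, Six3 and Six6 passed neither test.

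Nkx6-1 (chr5:101658139-101664996, minus strand) was the gene that fell over its body. It went from 23.8% (21.8% to 26.0%, 1591 calls) to 14.9% (13.1% to 16.9%, 1338 calls), with an adjusted p of 3.51e-09 by the Fisher exact test and of 2.48e-10 within bins, where the difference was -9.64 points. Its domain was longer in TCKO (5000 and 7000 bp), the first 1 kb outside its domain was at 26.7% and 18.5% and the next stretch, to 5 kb, at 32.5% and 25.1%, and 1 bin 6696 bp downstream of its TSS went from 39.7% of 146 calls to 17.9% of 140 calls (adjusted p = 0.00169 by the exact test). These measures share calls with each other. Other measures of Nkx6-1 did not go the same way. Its WT domain was at 5.08% and 5.72% and the interior of that domain at 2.5% and 3.85%, and the 20 kb upstream of its TSS were at 45.7% and 48.8%, a difference that passed within bins alone (4.64 points). Foxl2, an ovary gene, was lower within bins alone (13.9% and 10.9% pooled).

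Over both 20 kb flanks of the gene, 38 of the 50 rose by both tests and 0 fell, against 79.5% and 3.03% of all genes. By the pooled test 39 were higher and 0 lower, against 80.4% and 4.02% of all genes, and within bins 44 were higher and 0 lower, against 84% and 3.6%. The median level was 52.0% in WT and 56.8% in TCKO, and the median difference 4.47 points against 5.66 over all genes. With the overlapping flanks of Foxc2 and Foxf1 counted once, the pooled flanks were at 50.7% and 55.7%. The largest flank increases were those of Lhx8 (51.5% to 65.4%), Nkx6-2 (60.1% to 73.7%), En2 (30.8% to 42.0%) and Irx1 (53.6% to 64.4%). On single sides, the 20 kb upstream of Nkx6-2 went from 43.6% (41.5% to 45.7%) to 63.2% (60.9% to 65.4%), those upstream of Six2 from 51.4% to 64.2%, those downstream of Lhx8 from 64.9% to 82.4% and those downstream of Gata6 from 54.0% to 70.97%. The increases of Lhx8 and Nkx6-2 thus lay away from a TSS that did not rise by both tests.

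Finally, 200 bp bins that gained 40 points or more were counted. Bins entered with 4 or more CG cytosines and, in each of the 2 libraries, 4 or more calls per cytosine on average. A gain also needed an adjusted p under 0.05 by the Fisher exact test over all testable bins of the genome. The 50 genes with 20 kb on each side held 2987 testable bins, of which 57 gained (1.91%), where 2.92% of the bins of the genome did. No bin lost 40 points or more, where 0.0354% of the bins of the genome did. Without the limit of 40 points, 150 of the bins (5.02%) were higher and 5 (0.167%) lower at the same adjusted p, where 6.71% of the bins of the genome were higher and 0.179% lower. The gains lay in 22 genes and 28 had none. Barx2 had 7 of its 148 testable bins (4.73%), Lhx8 6 of 92 (6.52%), Lhx9 5 of 97 (5.15%) and Pax1 4 of 85 (4.71%). A further 7 genes (Pax5, Pax8, Irx5, Lhx4, Gata6, Nkx6-2 and Otx2) had 3 each, from 1.44% of 208 bins in Pax5 to 12.5% of 24 bins in Nkx6-2. These 11 genes held 43 of the 57, and the counts depend on how many bins of a locus were testable.

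Most testable bins of these loci lay away from the starts, with a median distance from the TSS of 15144 bp, 2484 of the 2987 (83.2%) over 5 kb and 2002 (67.02%) over 10 kb away. For the gaining bins the median was 18282 bp, 55 of the 57 were over 5 kb and 41 over 10 kb away. Within 2 kb of the TSS 1 of 150 testable bins gained (0.667%), the Barx2 bin printed above. None of the 309 testable bins inside the WT domains of the 50 genes gained 40 points. In domains of 3 kb or more the count was 0 of 298 for the developmental factors and 290 of 5382 (5.39%) for other genes, a difference that was not tested. Just outside the domains, within 2 kb, 3 bins gained (Barx2, Irx2 and Foxc1). Depth limits the count inside the domains. Of the bins with at least 4 CG cytosines there, 23.8% were testable in the developmental factors (20.1% in other genes), against 52.0% in the genome, and with a minimum of 1 call per cytosine 6 of 950 bins inside the domains gained. By place, 27 of the 57 lay between genes, 23 in introns and 7 over an exon. Outside the 2 kb around the TSS, 1.79% of the testable bins gained in the gene bodies, 2.24% in the upstream flanks and 1.91% in the downstream flanks.

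**Figure D5:**
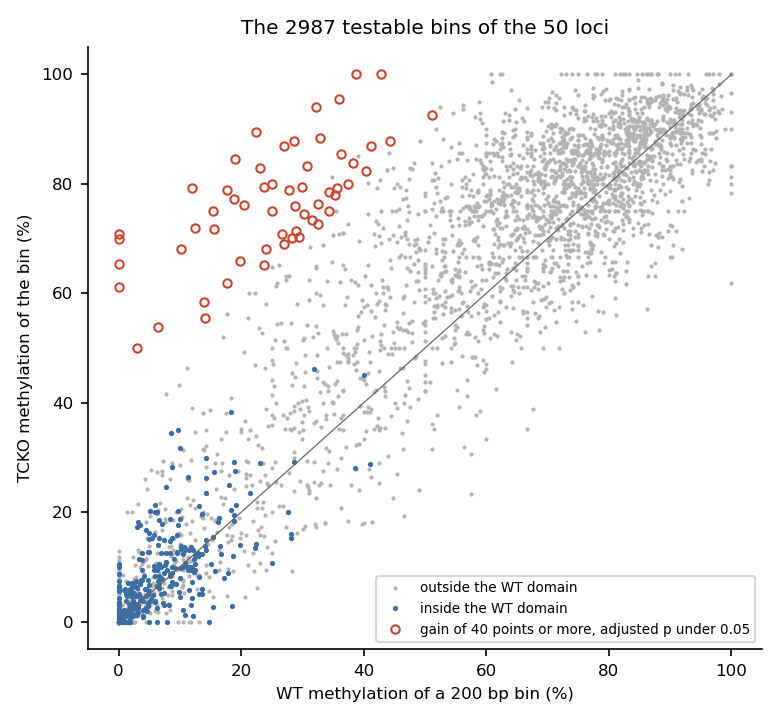
WT level (horizontal axis, percent) and TCKO level (vertical axis, percent) of each of the 2987 testable 200 bp bins of the 50 genes and their 20 kb flanks, with bins inside the WT domain in blue, the 57 bins that gained 40 points or more as red rings and a line where both are equal. The blue points stay in the lower left part and the red rings start from WT levels between 0 and 51.2%.

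In WT the gaining bins ranged from 0% to 51.2% and in TCKO from 50% to 100%. Of the 57, 39 were between 20% and 60% in WT and 18 were under 20%. Of the 72557 gaining bins of the genome, 46420 were between 20% and 60% and 26067 under 20%. Most gaining bins thus came from intermediate levels in the genome as well. The size required of a gain leaves out bins that started above 60%. Among the bins under 20% in WT, 18 of 618 (2.91%) gained in the developmental loci, against 36.2% of such bins in the genome, and among those between 20% and 60% the shares were 5.32% and 10.4%. Bins under 20% made up 20.7% of the testable bins of these loci (12.0% of those outside the WT domains) and 2.90% of those of the genome. These shares were not tested against each other. Of the 57, 25 held 4 CG cytosines, the smallest number allowed, and 9 held 10 or more. The median was 6 CG cytosines both in the gaining bins and in all testable bins of these loci.

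The bins came in runs in several genes. In Lhx8, adjacent bins 9642 and 9842 bp upstream of the TSS, between genes, went from 25% (17.7% to 34.1%) to 80% (70.0% to 87.3%) and from 6.45% (3.54% to 11.5%) to 53.9% (44.3% to 63.3%), the second being the bin printed above. In Nkx6-2, adjacent bins 14704 and 14904 bp upstream went from 22.4% to 89.5% and from 23.01% (16.2% to 31.6%, 113 calls) to 82.9% (75.9% to 88.1%, 146 calls), the lowest adjusted p of the 57 (1.35e-19 by the exact test). These 2 loci were those with the largest flank increases, which the bins are a part of. In Pax8, adjacent intron bins 22298 and 22098 bp downstream of the TSS went from 0% of 34 calls to 70% of 30 calls and, in the bin printed above, from 0% to 70.8%. Lhx9 had 3 adjacent bins over its 3′ end, of which 1 went from 0% of 40 calls (interval to 8.76%) to 61.1% of 36 calls (44.9% to 75.2%). In Otx2, a forebrain gene, adjacent bins 5882 and 6082 bp upstream, in an intron of Otx2os1, went from 19.8% to 65.9% and from 3.03% to 50%. In Gata6 a bin 40636 bp downstream of the TSS went from 0% of 33 calls to 65.4% of 26 calls. The skeletal genes Pax1 (4 bins), Irx5 (3), Pax9, Irx3 and Foxc1 (2 each), Six2 and Gata4 (1 each) also held gaining bins beside the 6 of Lhx8, and Foxc2, Nkx3-2, En1 and Barx1 held none.

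Among the bins that were lower, none by 40 points, the largest change was in a bin 3834 bp upstream of Irx3, which went from 57.6% of 198 calls to 30.6% of 206 calls (adjusted p = 4.49e-06 by the exact test). The other 4 lay in Pax1 (90.3% and 66.7%), upstream of Lhx5 (61.6% and 42.5%), in Nkx6-1 (above) and upstream of Foxf1 (12.1% and 1.08%).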

How the data were processed

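Genomic DNA of primary osteoblasts was sequenced after bisulfite conversion, with 1 WT and 1 TCKO library. The authors aligned reads with BSMAP 2.74 to GRCm38, and from the uniquely mapped reads they deposited counts, not normalized, of methylated and of all calls at each CG cytosine of each strand. CASAVA is also named in the submitters' processing notes. Removal of duplicate reads is not described in the sources used here, and the authors' methods give no replicate libraries. The 72443596 positions used were checked against the GRCm38 reference, and 0 fell off a CG.

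Levels were methylated over all calls, pooled within 2 kb of the GENCODE M21 TSS, over the gene body and in 20 kb flanks. Genes with at least 20 calls per library entered a 2-sided Fisher exact test, adjusted over all protein-coding genes by Benjamini-Hochberg. Tests on simulated data showed that this test also calls genes whose coverage shifts between parts of a window. The Cochran-Mantel-Haenszel test within 200 bp bins was therefore added after seeing the data, and change is stated where both passed. Domains, edges and bins were as defined in the report. The members and lists were chosen with earlier results of these data known. Genes named in the text were the skeletal list, the 6 highest and 4 lowest differences at the TSS, the 6 longest and 4 shortest domains, the 6 highest edge gains and the 6 genes with the most gaining bins, and others were named after their values were seen. Stretches of 200 bases before a TSS replaced the bin over it, which holds UTR bases, and sequences came from the reference genome. Python 3.11.15, numpy 2.4.6, scipy 1.17.1, pandas 2.3.3, numba 0.67.0 and matplotlib 3.10.9 were used. Alternatives changed the window, TSS, coverage minimum, strand, thresholds and domain rule.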

Additional observations from a re-analysis of the deposited data

How the results depend on the processing

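No paired analysis was possible because each genotype has 1 library, and for the same reason no replicate could be left out. Of 215 alternatives to the reported values, 140 kept the direction and the side of the threshold, or stayed within the 95% order-statistic interval of a median or within 1.5 times a count. Another 40, all of single genes, kept the direction and no longer passed the threshold.

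The 12 genes called higher at the TSS by the pooled test became 6 with 1 kb on each side, 19 with 5 kb, 4 and 2 with cytosines of at least 4 and 10 calls in each library, and 4 with a difference of at least 10 points. In the same order, the shares of all genes tested were 23.4%, 55.4%, 28.6% and 18.3%, and 5160 of 21722 genes were higher by at least 10 points. With at least 4 and 10 calls, 49 and 38 of the 50 genes were tested. Single genes turned direction. Lhx9 was at -1.57 points with 1 kb and at -1.49 at the principal TSS, Gata4 at -2.37 with 5 kb, Foxf1 at 1.69 with 5 kb and at 1.99 with at least 4 calls, Foxc2 at -4.54 and Irx3 at 0.237 with at least 4 calls, Irx3 at 0.392 within bins and Irx6 at -15.1 on the plus strand. The median domain of 5000 bp became 3000 bp with bins under 10% as low and 6900 bp with bins under 30%, and the 26 domains of 5 kb or more became 12 at 10%. Over all genes the median became 1000 and 1400 bp, and 0.869% had a domain of 5 kb or more at 10%. The 5 edge calls became 9 with edges set and measured on the same calls, 3 with edges set in TCKO and 2 with bins under 10%. In these settings 36, 21 and 19 of the developmental factors were tested, among 1631, 508 and 557 genes. The share of all genes called is not given, so whether these counts moved apart from it cannot be told. The 57 gaining bins became 108 and 7 at a minimum of 1 and 10 calls per cytosine, 131, 93, 27 and 11 at 20, 30, 50 and 60 points, and 37 with 10 kb flanks, and the 0 inside domains became 6 at a minimum of 1 call. At 1 and 10 calls these were 1.44% and 1.22% of the testable bins, against 2.65% and 1.94% in the genome. At 20, 30, 50 and 60 points they were 4.39%, 3.11%, 0.904% and 0.368%, against 6.22%, 4.70%, 1.57% and 0.736%. With 10 kb flanks the share was 1.81%, against 2.92%. The cause of each was not tested, beyond fewer or more calls, bins or genes entering. Depth was thin inside the domains (3.02 calls per cytosine in WT and 2.47 in TCKO) and in the TSS windows (2.64 and 2.09).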

Other observations

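Other developmental genes, given as counts and medians with no test of the lists, ranged around the 50 genes. The 34 paralogs of the same families outside the list had a median WT domain of 3000 bp and a median difference within 2 kb of the TSS of 0.480 points, and by both tests 7 rose and 3 fell at the TSS, where 31% of all genes tested rose and 0.603% fell. The 39 Hox genes, the patterning genes of the body axis, had a median domain of 10400 bp in WT and 12000 bp in TCKO, a median difference of -0.0511 points, and 86.1% of the bins of their loci under 20% in WT, and by both tests 3 rose and 1 fell. The 8 Dlx and Msx genes, which act in limb and craniofacial bone, had a median domain of 2500 bp and a median difference of 0.527 points, and by both tests 1 rose and 0 fell, with 1 lower by the pooled test alone and 2 within bins alone. Bins that gained 40 points made up 1.80% of the testable bins of the paralog loci (35 of 1940), 0.595% of those of the Hox loci (4 of 672) and 1.97% of those of the Dlx and Msx loci (6 of 304), beside 1.91% at the 50 genes.

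Short motif strings were counted in the 57 gaining bins, on both strands, as letters and not as binding sites. TGANTCA, the string of AP-1 and related bZIP factors, was in 10 of the 57 (17.5%), in 13.0% of all gaining bins, in 5.46% of the other testable bins of these loci and in 5.83% of all testable bins. AACCACA, a Runt factor string, was in 5 of the 57 (8.77%), in 9.03% of all gaining bins and in 5.04% of all testable bins. GGAATG, a TEAD string, was in 5 of the 57 (8.77%), in 15.3% of all gaining bins and in 10.8% of all testable bins. The strings do not contain each other. These shares were not tested.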
